A study of Homo sapiens with 9 samples.

Results

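Very broad accessible peaks were taken from 4 ATAC-seq peak lists of HEK293T, a human cell line that was derived from embryonic kidney. A peak was counted as very broad when its end minus its start was 2000 bp or more in any list, and such peaks were merged across lists where they shared at least 1 bp. This gave 1214 regions, built from 2403 of the 194414 deposited peaks, against 71597 regions formed by merging all peaks. The regions were selected on their measured peak width in these same lists, so widths are given as a description and were not tested.

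ATAC-seq maps open chromatin with the Tn5 transposase, which inserts sequencing adapters into accessible DNA, and each reaction here used 100000 cells. The control group carried a CRISPR/Cas9 non-targeting guide and had 2 libraries. The IGF2BP1 knockout had 3 libraries, and the IGF2BP2 and IGF2BP3 knockouts had 2 libraries each. All groups were HEK293T cells with no further treatment. Each knockout was a single sorted clone made by transient transfection of guide plasmids, and the effect of a clone and that of its genotype cannot be told apart. Libraries came from batches 1, 2 and 3 in the IGF2BP1 knockout and from batches 2 and 3 in the other groups. Every group is represented by 1 list without heights, scores or p-values, so no spread between replicates was measured, the depth is unknown, and batches cannot be compared. Among genes taken as marks of HEK293T cells, LHX1, NEFL, NEFM and INA had a peak at a gene end in all 4 lists, EYA1 had one in the IGF2BP3 knockout alone, and PAX2 and PAX8 had none in any list. PAX2 was nevertheless open inside the gene in all 4 lists, at a very broad region over a further PAX2 start (chromosome 10, 100743709 to 100746420). Its widest peak there measured 2712 bp in the control and 1621, 1413 and 1422 bp in the knockouts of IGF2BP1, IGF2BP2 and IGF2BP3. Among 12 marker genes of other cell types, 8 had no such peak in any list, and CD34, SPI1 and COL1A1 had one in all 4.

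IGF2BP1, IGF2BP2 and IGF2BP3 are related RNA-binding proteins that bind and stabilise messenger RNAs and are active in fetal tissue and tumours. An ATAC-seq peak usually marks a promoter or enhancer where nucleosomes have been displaced. Very wide peaks are commonly seen at CpG-rich promoters of regulatory genes, at clusters of highly transcribed small genes, on mitochondrial DNA, which carries no nucleosomes, and on repeated sequence where reads from many copies are placed together.

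The promoters of 7 genes under very broad peaks show the range of sequence these peaks lie on. Each is printed 5′ to 3′ on the strand of the gene, from 250 bases before to 50 bases after the start (RefSeq, GRCh38.p14). Capitals mark matches, on either strand, to the GC box GGGCGG, the CCAAT box CCAAT, the TATA box TATAAA, the cAMP response element TGACGTCA, the ETS core CCGGAAG, the E-box CACGTG and the AP-1 element TGACTCA. Neighbouring matches can share bases.
DUSP1: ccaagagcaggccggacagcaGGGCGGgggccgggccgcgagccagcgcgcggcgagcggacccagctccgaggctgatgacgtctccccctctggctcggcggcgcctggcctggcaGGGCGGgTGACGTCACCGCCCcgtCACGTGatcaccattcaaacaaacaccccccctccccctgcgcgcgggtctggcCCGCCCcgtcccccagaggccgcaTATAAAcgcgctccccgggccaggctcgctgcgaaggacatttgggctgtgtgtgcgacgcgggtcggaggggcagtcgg
FOS: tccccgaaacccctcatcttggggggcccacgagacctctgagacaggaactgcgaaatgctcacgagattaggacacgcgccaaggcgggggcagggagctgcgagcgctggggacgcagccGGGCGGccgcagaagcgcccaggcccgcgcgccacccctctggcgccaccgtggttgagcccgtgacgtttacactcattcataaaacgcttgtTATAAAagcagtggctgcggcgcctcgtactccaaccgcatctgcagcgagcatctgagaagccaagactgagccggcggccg
JUN: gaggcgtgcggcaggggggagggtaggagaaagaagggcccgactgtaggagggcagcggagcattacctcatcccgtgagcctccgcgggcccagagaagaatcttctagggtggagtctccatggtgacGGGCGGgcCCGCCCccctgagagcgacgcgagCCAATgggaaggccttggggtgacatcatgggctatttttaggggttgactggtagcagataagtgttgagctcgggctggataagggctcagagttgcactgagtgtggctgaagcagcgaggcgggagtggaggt
H3C15: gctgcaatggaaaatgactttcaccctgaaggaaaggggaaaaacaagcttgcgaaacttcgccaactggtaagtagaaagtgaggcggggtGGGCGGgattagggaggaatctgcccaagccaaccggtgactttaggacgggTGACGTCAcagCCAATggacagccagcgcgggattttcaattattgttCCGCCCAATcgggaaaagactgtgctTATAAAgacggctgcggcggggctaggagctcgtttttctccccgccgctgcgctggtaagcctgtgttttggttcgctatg
LHX4: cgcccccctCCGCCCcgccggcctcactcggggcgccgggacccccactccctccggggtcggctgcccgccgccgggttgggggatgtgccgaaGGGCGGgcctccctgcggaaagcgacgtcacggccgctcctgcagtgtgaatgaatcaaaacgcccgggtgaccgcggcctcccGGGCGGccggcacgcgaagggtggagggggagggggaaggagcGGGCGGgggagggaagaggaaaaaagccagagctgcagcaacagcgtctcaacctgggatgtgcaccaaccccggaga
SPHK1: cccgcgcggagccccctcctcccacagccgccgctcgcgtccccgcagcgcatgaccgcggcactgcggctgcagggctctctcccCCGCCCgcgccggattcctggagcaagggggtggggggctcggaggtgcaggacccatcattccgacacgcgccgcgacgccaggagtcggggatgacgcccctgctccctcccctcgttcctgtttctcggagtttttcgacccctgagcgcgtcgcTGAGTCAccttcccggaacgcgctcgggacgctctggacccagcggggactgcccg
SPRY1: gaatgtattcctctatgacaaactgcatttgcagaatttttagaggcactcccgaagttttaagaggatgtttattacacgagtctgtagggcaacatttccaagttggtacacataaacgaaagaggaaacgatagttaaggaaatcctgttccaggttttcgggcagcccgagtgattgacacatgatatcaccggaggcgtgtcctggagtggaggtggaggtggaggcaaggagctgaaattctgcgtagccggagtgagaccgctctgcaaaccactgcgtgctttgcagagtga
DUSP1 lies at chromosome 5, 172771146 to 172771445, on the minus strand. FOS lies at chromosome 14, 75278578 to 75278877, on the plus strand, and JUN at chromosome 1, 58783998 to 58784297, on the minus strand. H3C15 lies at chromosome 1, 149852358 to 149852657, and LHX4 at chromosome 1, 180230014 to 180230313, both on the plus strand. SPHK1 lies at chromosome 17, 76382954 to 76383253, and SPRY1 at chromosome 4, 123396545 to 123396844, both on the plus strand. DUSP1 and LHX4 hold 4 GC boxes each, with a G and C content of 73.3% and 72.7%. The SPRY1 window holds no match to any of these motifs, and its G and C content is 47.7%. The DUSP1, FOS and H3C15 windows each hold 1 TATA box.

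The IGF2BP1 knockout list held the most very broad peaks. Its group had 3 libraries, with the only one of batch 1, and each other group had 2. Genotype, number of libraries and batch cannot be told apart in this excess. Very broad peaks numbered 537 in the control list, 1.37% of its peaks (Wilson 95% interval 1.26 to 1.49). The IGF2BP1 knockout list had 939, or 1.84% (1.73 to 1.96), the IGF2BP2 knockout list 415, or 0.689% (0.626 to 0.758), and the IGF2BP3 knockout list 512, or 1.16% (1.07 to 1.27). Only counting error over peaks enters these intervals. The order of these shares is that of the median width of all peaks. It was highest in the IGF2BP1 knockout (834 bp), followed by the control (771 bp), the IGF2BP3 knockout (713 bp) and the IGF2BP2 knockout (651 bp). Among very broad peaks alone, the median width differed little between lists and lay between 2184 and 2199 bp. When peaks of a list closer than 500 bp were joined before the threshold, the 4 lists held 768, 1188, 689 and 758 very broad peaks in the order control, IGF2BP1, IGF2BP2 and IGF2BP3 knockout. The IGF2BP2 knockout list gained the most in proportion and still held the fewest.

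Nearly all regions were open in every list, but few passed 2000 bp in every list. A peak was present in all 4 lists at 1167 of the 1214 regions. Over all 71597 merged regions that number was not computed. A peak was present there at 38833 regions in the control and at 50771, 59491 and 43562 in the knockouts of IGF2BP1, IGF2BP2 and IGF2BP3. The regions were chosen for a wide peak, so nothing is read from this difference. A width of 2000 bp or more was reached in 1 list at 584 regions (48.1%), in 2 lists at 256, in 3 lists at 189 and in all 4 lists at 185 (15.2%). The IGF2BP1 knockout alone accounted for 356 regions, the control alone for 83, the IGF2BP3 knockout alone for 94 and the IGF2BP2 knockout alone for 51. The next most frequent combination was the control with the IGF2BP1 knockout, at 96 regions. All 3 knockouts without the control reached 2000 bp at 39 regions.

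**Figure D1:**
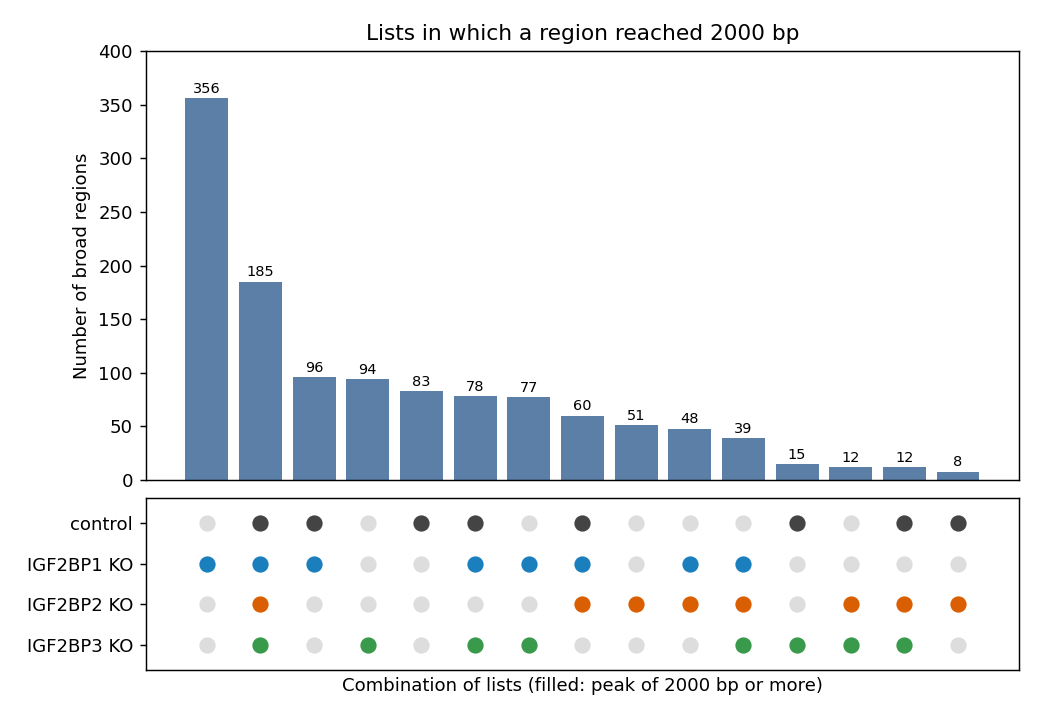
Bars give the number of merged regions (y axis) for each combination of lists in which the region held a peak of 2000 bp or more; filled circles under a bar name the lists, with KO for knockout. The IGF2BP1 knockout alone (356 regions) and all 4 lists (185 regions) are the 2 most frequent combinations.

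Where a list had a peak but did not reach 2000 bp, the median width of its widest peak in the region was 1579 bp (control), 1785.5 bp (IGF2BP1 knockout), 1384 bp (IGF2BP2 knockout) or 1561 bp (IGF2BP3 knockout). A region chosen at its widest list is narrower in the others by construction. The threshold fell in a dense part of the distribution. The widest peak measured 2000 to under 2250 bp at 670 regions (55.2%), and 3000 bp or more at 28 regions. Here and in what follows, 4 widths in a row give the widest peak of each list in the region, in the order control, IGF2BP1, IGF2BP2 and IGF2BP3 knockout. Just inside the threshold were AMPD2 (1819, 2000, 1781 and 1836 bp), ZNF700 (1956, 2000, 1205 and 1192 bp) and a region 60697 bp from BTRC (2001, 1789, 891 and 850 bp). Just outside were PRKCD (1774, 1999, 1184 and 1460 bp), PTDSS1 (1903, 1999, 1885 and 1970 bp) and a region 10449 bp from AMOT, where the IGF2BP1 and IGF2BP2 knockouts had 1999 and 1370 bp and the other lists no peak.

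The 2 widest regions lay on the mitochondrial genome. The first ran from 119 to 8166 and covered ND1, ND2, COX1 and COX2, which encode subunits of respiratory complexes I and IV, with widths of 8038, 4181, 8041 and 5493 bp. The second ran from 10360 to 16470 over ND3, ND4, ND4L, ND5, ND6 and CYTB, with widths of 6008, 5329, 6111 and 6099 bp. The IGF2BP1 knockout list, which held the most very broad peaks, had the narrowest peak in both mitochondrial regions. In the first region the IGF2BP3 knockout had a further peak of 1483 bp after a gap of 232 bp. The share of mitochondrial reads in the libraries is not known from these lists.

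Of the nuclear regions wide in all 4 lists, those with the largest width in their narrowest list came first, and the leading 3 lay away from coding genes or on sequence without gene positions. A region at chromosome 21, 6369031 to 6372522, measured 3437, 3448, 3466 and 3415 bp and lay 72347 bp from the nearest coding gene. One on an unlocalized sequence of chromosome 17 (GL000205v2, 86572 to 90052) measured 3449, 3468, 3427 and 3360 bp. Another at chromosome 16, 46398376 to 46401590, measured 3013, 3054, 3215 and 3175 bp and lay 177001 bp from SHCBP1. In each of these 3 the lists differed little. Over the 185 regions of 2000 bp or more in all lists, the median ratio of the widest list to the narrowest was 1.08, and it was under 1.1 at 108 regions and over 1.5 at 4. Unplaced and unlocalized sequences held 12 very broad regions among 353 merged regions, 3.4 per 100, against 1.69 per 100 on the autosomes and X.

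The next in that order lay at or near genes. SPRY1, an inhibitor of receptor tyrosine kinase signalling, had a region at chromosome 4, 123396657 to 123399806, with widths of 2857, 3107, 3150 and 2915 bp. SLCO5A1, of the organic anion transporter family, measured 2842, 2749, 2779 and 2730 bp at chromosome 8, 69832455 to 69835300. A region 3595 bp from KLF9, a Krüppel-like transcription factor, measured 2743, 2780, 2735 and 2722 bp. In these 3 regions no list fell under 2700 bp. Among further regions wide in all lists, CXCR4, a chemokine receptor, measured 2646, 3084, 2213 and 2991 bp. CDKN2A, a cell cycle regulator, measured 2808, 2978, 2044 and 3140 bp.

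Other wide regions differed more between lists. CPEB2, a regulator of mRNA translation, held the widest nuclear peak, of 3760 bp in the IGF2BP1 knockout, at chromosome 4, 15001280 to 15005084. Its widths in the control and in the IGF2BP2 and IGF2BP3 knockouts were 2350, 2439 and 2207 bp, and the IGF2BP3 knockout had a further peak of 818 bp after a gap of 621 bp. A region 1007 bp from MEIS1, a homeobox transcription factor, measured 3371, 3598, 2425 and 2292 bp at chromosome 2, 66574876 to 66578520. ADGRL3, an adhesion receptor of neurons, measured 1613, 3479, 3417 and 1966 bp, with 2 peaks each in the control and the IGF2BP3 knockout. PIP5K1A, a kinase that makes the lipid PIP2, measured 3239, 3107, 1686 and 1205 bp. In each of these 4 regions the IGF2BP1 knockout had a peak above 3000 bp while at least 1 other list stayed under 2500 bp.

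**Figure D2:**
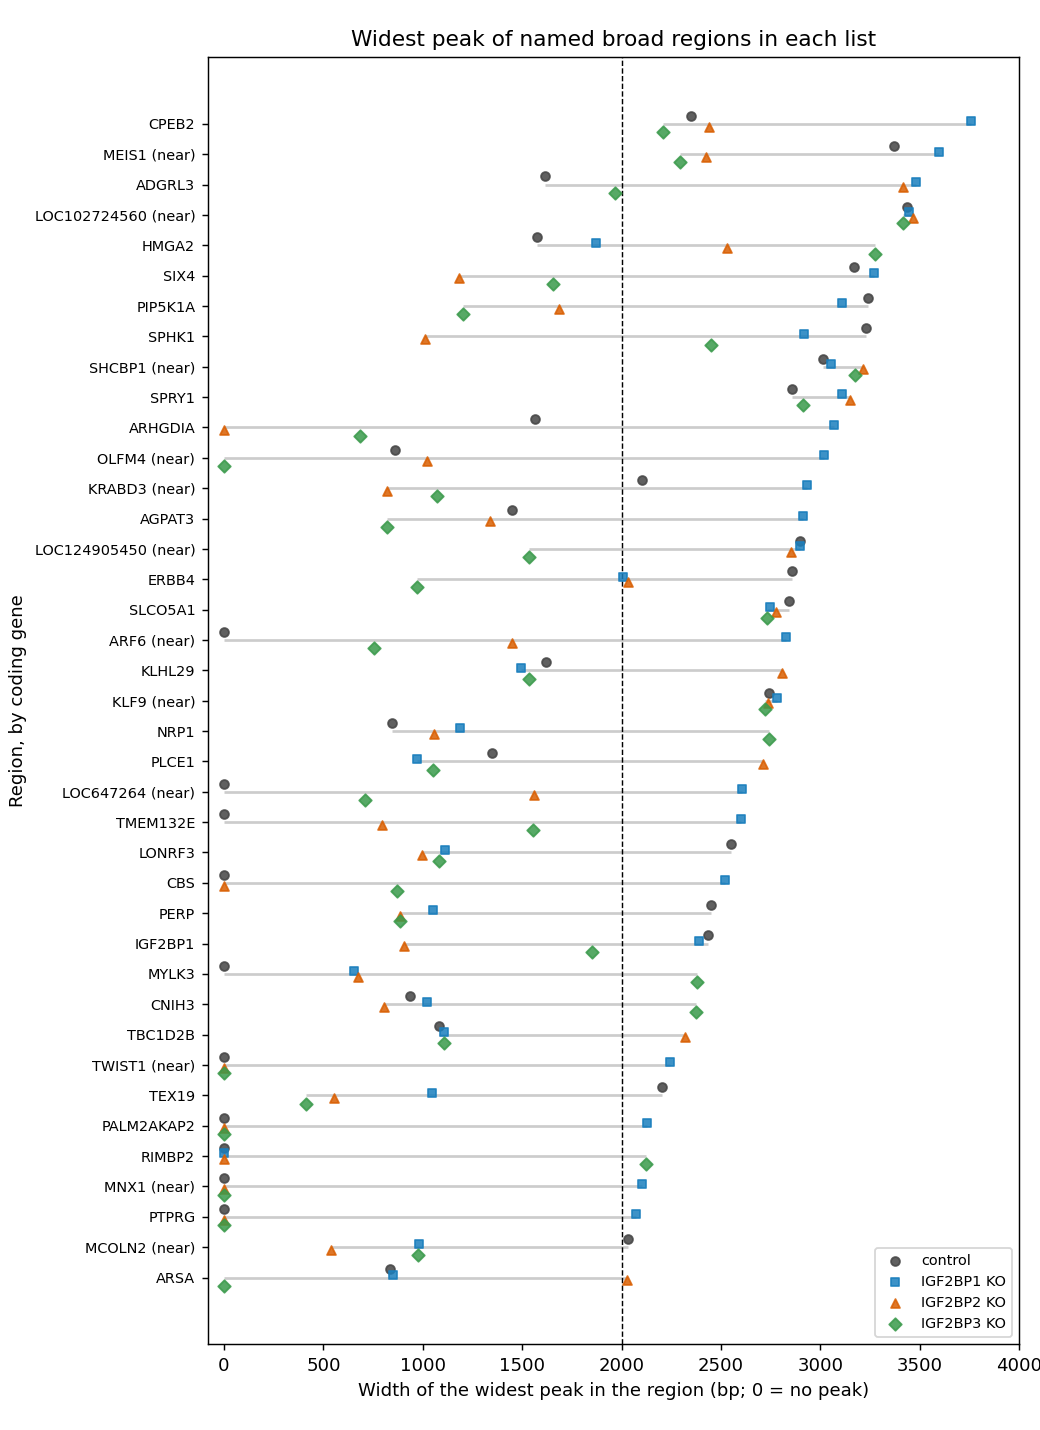
Width of the widest peak (x axis, bp; 0 means no peak) in each list for named regions on assembled chromosomes (y axis, by coding gene; "near" marks regions over 1 kb outside it); 1 point per list, with a small vertical offset, and a dashed line at 2000 bp. SPRY1, SLCO5A1 and KLF9 show 4 points close together, whereas SIX4, HMGA2 and ARHGDIA are spread over more than 1500 bp.

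Some regions passed 2000 bp in 1 list while the widest peak of every other list stayed far below. At some of them the other lists covered much of the same span in 2 peaks. Such regions were named by the lowest ratio of the other lists to the widest, so these values describe the extremes. In the control alone, PERP, a membrane protein induced by p53, measured 2451, 1052, 884 and 885 bp, and LONRF3, which carries a RING finger, measured 2549, 1114, 994 and 1082 bp. LONRF3 consisted of 2 peaks in each knockout, with gaps of 298, 385 and 431 bp in turn. PERP consisted of 2 peaks in the IGF2BP2 and IGF2BP3 knockouts, with gaps of 468 and 566 bp. In the IGF2BP1 knockout alone, a region 4354 bp from TWIST1, a basic helix-loop-helix factor, held a peak of 2243 bp at chromosome 7, 19106451 to 19108693, and no peak in any other list. The same held for regions in PTPRG (2071 bp), 3551 bp from MNX1 (2105 bp) and in PALM2AKAP2 (2129 bp). In the IGF2BP2 knockout alone, PLCE1, a phospholipase C, measured 1349, 972, 2712 and 1052 bp, and TBC1D2B measured 1080, 1107, 2318 and 1106 bp. TBC1D2B consisted of 2 peaks in the control and the IGF2BP1 and IGF2BP3 knockouts, with gaps of 415, 440 and 421 bp. The IGF2BP3 knockout alone had a peak of 2125 bp at RIMBP2, a synaptic scaffold protein, where the other lists had none. It also had one of 2741 bp beside NRP1, a semaphorin receptor, where the others measured 843, 1187 and 1056 bp. Each of those others had 2 peaks beside NRP1, with gaps of 1102, 547 and 830 bp.

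A list lacked any peak at few regions, namely 23 for the control and 1, 12 and 28 for the knockouts of IGF2BP1, IGF2BP2 and IGF2BP3. Over all merged regions a list lacked a peak far more often, as the counts above imply, and nothing is read from the difference. ARHGDIA had peaks of 1563 bp (control), 3069 bp (IGF2BP1 knockout) and 687 bp (IGF2BP3 knockout), and the IGF2BP2 knockout had none. CBS, an enzyme of cysteine synthesis, had peaks of 2521 bp (IGF2BP1 knockout) and 871 bp (IGF2BP3 knockout), with none in the other lists. TMEM132E had no control peak and measured 2601, 796 and 1554 bp in the 3 knockouts.

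Of the targeted genes, IGF2BP1 lay under a very broad region, at chromosome 17, 48995288 to 48998007. Its widths were 2434, 2392, 907 and 1850 bp, so the list of its own knockout stood close to the control, and the IGF2BP2 knockout was the narrowest. The IGF2BP3 knockout had a further peak of 519 bp there after a gap of 224 bp. At IGF2BP2 the widest peak at a gene end measured 898, 1152, 745 and 1773 bp, and at IGF2BP3 564 and 1051 bp in the control and the IGF2BP1 knockout, with none in the other lists. These widths say nothing of whether a gene was edited or its protein lost.

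Breaks within a region were examined next. A region counted as broken in a list when 2 or more of that list's peaks overlapped it. In the control 170 of 1191 regions with a peak were broken (14.3%), against 0.927% of all merged regions with a control peak. The IGF2BP1 knockout had 59 broken regions of 1213 (4.86%, all regions 0.288%), the IGF2BP2 knockout 296 of 1202 (24.6%, all regions 1.28%) and the IGF2BP3 knockout 203 of 1186 (17.1%, all regions 1.08%). A wide region offers more room for a break, and the rule chose wide regions, so nothing is read from the excess over all regions. The order of the lists was the same among regions whose widest peak was 1500 to under 2000 bp, at 3.35, 1.36, 7.5 and 4.43%. At 781 of the 1214 regions (64.3%) no list was broken. The gaps were short, with medians of 312.5, 290, 322 and 303 bp, and between 79.1 and 91.5% of them were under 500 bp.

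SIX4, a homeobox factor of kidney and muscle development, was among the regions with the most peaks in a single list. A single peak, of 3171 bp (control) or 3272 bp (IGF2BP1 knockout), covered nearly all of chromosome 14, 60721230 to 60724501. The IGF2BP2 knockout had 3 peaks there of 586, 555 and 1181 bp, separated by 505 and 310 bp. The IGF2BP3 knockout had 2 peaks of 1654 and 1071 bp, separated by 399 bp. SPHK1, a sphingosine kinase, measured 3230 and 2918 bp in the control and the IGF2BP1 knockout and 2452 bp in the IGF2BP3 knockout, and was split into 3 peaks of 808, 783 and 1013 bp in the IGF2BP2 knockout. HMGA2, a chromatin protein of fetal tissue, showed a different order. Its control peaks measured 518 and 1573 bp with a gap of 1111 bp, the gaps in the IGF2BP1 and IGF2BP2 knockouts were 138 and 690 bp, and the IGF2BP3 knockout covered chromosome 12, 65822876 to 65826151, in a single peak of 3276 bp. At the ERBB4 receptor gene the control had a single peak of 2859 bp, the IGF2BP1 and IGF2BP2 knockouts had 2 peaks each, and the IGF2BP3 knockout had 3. At chromosome 18, 107172 to 110756, the IGF2BP3 knockout had 4 peaks, the widest of 1536 bp, where the control and the IGF2BP1 knockout had an identical peak of 2899 bp.

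Lists that fell short of 2000 bp were more often short at 1 edge of the region than at both. Edges were compared with the widest peak of the region, at a tolerance of 200 bp. In the control, 339 of 677 such regions (50.1%) were short at 1 edge, 48 at both edges and 165 (24.4%) were broken. The IGF2BP2 knockout had 339 of 799 short at 1 edge (42.4%), 60 at both and 288 broken (36%). In the IGF2BP3 knockout the numbers were 314, 53 and 199 of 702, and in the IGF2BP1 knockout 128, 5 and 56 of 275. Unbroken peaks short at neither edge outnumbered those short at both. They numbered 102, 85, 100 and 108 in the order control, IGF2BP1, IGF2BP2 and IGF2BP3 knockout. Other regions were not examined in this way.

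How each knockout compared with the control was measured on the summed width of all peaks in a region. Over all merged regions found in both lists, 27.7% were wider by at least 25% in the IGF2BP1 knockout and 3.65% narrower by at least 20%, the inverse of that fold. The same shares were 13.7 and 15.7% for the IGF2BP2 knockout and 11.5 and 18.9% for that of IGF2BP3. Among the very broad regions, 283 of 1191 (23.8%) were wider and 40 (3.36%) narrower in the IGF2BP1 knockout, 109 (9.2%) and 222 (18.7%) of 1185 with IGF2BP2 knocked out, and 145 (12.4%) and 168 (14.3%) of 1172 with IGF2BP3 knocked out. Because the widths of these lists had chosen the regions, nothing is read from those counts. They also depended on scaling. Dividing each width by the median width of its list shifted all log2 ratios by -0.11, 0.24 and 0.11 in the IGF2BP1, IGF2BP2 and IGF2BP3 comparisons. After that division 203 regions were wider and 64 narrower, 328 wider and 109 narrower, and 229 wider and 112 narrower, so the balance turned for IGF2BP2 and IGF2BP3.

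Choosing regions in lists other than the pair compared reduces the selection by width but does not remove it. The spans of these regions were still merged from very broad peaks of every list, the compared pair included. A peak of the pair can thus extend a region, and further peaks then enter the summed width. All regions, by contrast, were formed by merging all peaks. Among 676 regions of 2000 bp or more in the IGF2BP2 or IGF2BP3 knockout, 88 (13%) were wider and 13 (1.92%) narrower in the IGF2BP1 knockout than in the control, and the median ratio was 1.05 (quartiles 0.998 and 1.15). The share of wider regions was thus below the 27.7% of all regions and near the 14% of regions that measured 1500 to under 2000 bp in the same 2 lists. Among 1044 regions chosen in the IGF2BP1 or IGF2BP3 knockout, 82 (7.85%) were wider and 178 (17%) narrower in the IGF2BP2 knockout, with a median ratio of 0.988. The shares were 9.93 and 13% for regions of 1500 to under 2000 bp chosen likewise, and 13.7 and 15.7% for all regions. Among 984 regions chosen in the IGF2BP1 or IGF2BP2 knockout, 96 (9.76%) were wider and 132 (13.4%) narrower in the IGF2BP3 knockout, with a median ratio of 0.996. The corresponding shares were 8.77 and 12.5% for the narrower class, and 11.5 and 18.9% for all regions. Between 75.1 and 85.1% of regions lay within these limits in the 3 comparisons, against 68.7 to 70.6% of all regions. Regions of 1500 to under 2000 bp were much the same as the very broad ones, at 77.1 to 84.6%. The 3 comparisons share the control list, and no replicate spread was available to set these ratios against.

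**Figure D3:**
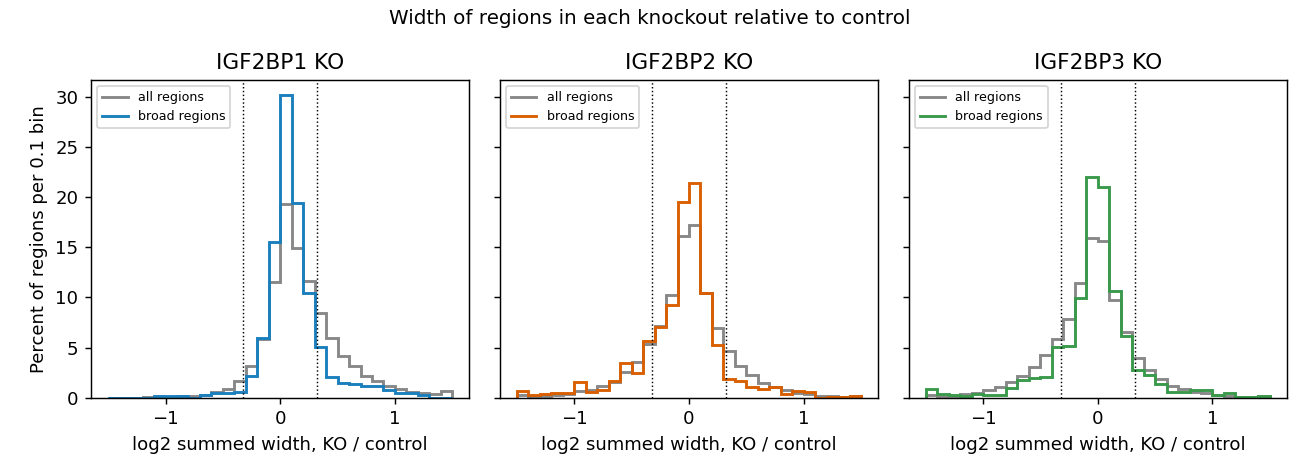
Distribution of the log2 ratio of summed peak width, knockout over control (x axis), as the percent of regions per bin of 0.1 (y axis), for all regions in both lists (grey) and for broad regions chosen in the other 2 knockout lists (colour); dotted lines mark 25% wider and 20% narrower, and values beyond the axis are held in its last bins. The IGF2BP1 knockout is shifted to the right in both sets (median ratios 1.1 and 1.05). The broad regions lie closer to their centre than all regions do in all 3 panels. Regions of 1500 to under 2000 bp, not drawn, were about as close.

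Position relative to genes was not part of the rule. A coding gene began or ended in or within 1 kb of 879 regions (72.4%, Wilson interval 69.8 to 74.8), 181 lay elsewhere within a coding gene, 142 lay outside, and 12 were on sequences without gene positions in the table used. On the autosomes and X, the share of widest peaks at a gene end rose with their width, from 9.12% at 500 to under 1000 bp to 41.1% at 1000 to under 1500 bp, 63% at 1500 to under 2000 bp and 73.1% (70.5 to 75.5) at 2000 bp or more. A wide peak reaches a gene end more easily, but with the midpoint of the peak in place of its span the shares were still 8.07, 39.2, 59.9 and 65.8%. Of the regions outside genes, 53 lay more than 100 kb from any coding gene. One of these, at chromosome 4, 180057350 to 180060364, lay 1387249 bp from TENM3 and measured 2421, 2978, 2531 and 2396 bp.

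Position was also described for regions wide in a single list. The share at a gene end was 64% of 356 regions (Wilson interval 58.9 to 68.9) wide in the IGF2BP1 knockout alone and 77.1% of 83 (67 to 84.8) wide in the control alone. It was 68.6% of 51 (55 to 79.7) and 80.9% of 94 (71.7 to 87.5) for the knockouts of IGF2BP2 and IGF2BP3 alone. Most of these intervals overlap. They cover counting error over regions, which are not replicates, and the widths of the lists set which regions fall in each set, so no difference between lists is read from them.

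Broad peaks at promoters reached farther into the gene than away from it. Starts and strands were taken from the RefSeq promoter table, which held 15843 of 20056 coding genes and none on chromosome 8, where 41 of the regions lay. For 493 very broad peaks whose starts all lay on 1 strand, the median distance from the most upstream start to the upstream edge was 784 bp (quartiles 488 and 1154), and to the downstream edge 1481 bp (1119 and 1779). The downstream side was the longer at 366 of them (74.2%). That share was 69.8% of 1703 peaks of 1500 to under 2000 bp, 65.7% of 3857 peaks of 1000 to under 1500 bp and 55.7% of 1751 peaks of 500 to under 1000 bp. With peaks holding exactly 1 start, a choice made after seeing the data, it was 69.6% of 355 very broad peaks.

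**Figure D4:**
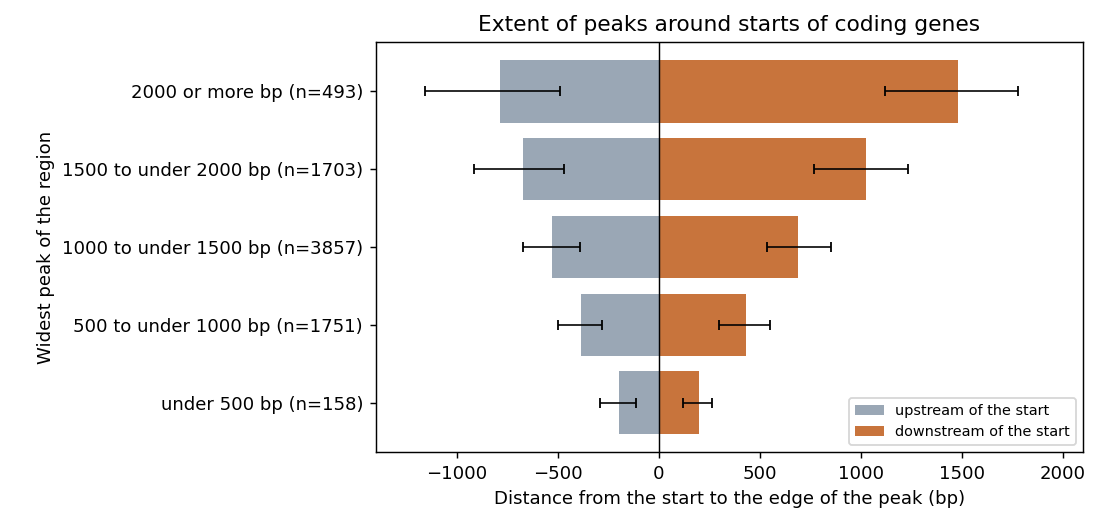
Median distance (bars, bp) from the start of a coding gene to the upstream edge (left of 0) and downstream edge (right of 0) of the peak, by width of the peak (y axis, with the number of peaks); whiskers show quartiles. The downstream distance grows from 435 to 1481 bp from the 500 bp class to the widest class, and the upstream distance from 382 to 784 bp.

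Breaks and short edges lay mostly on the downstream side of these starts. Where a list fell short at 1 edge, that edge was the downstream edge in 326 of 464 cases (70.3%) over the 4 lists, and in 74.8, 70, 69.2 and 66.4% of cases in the 4 lists. Of 270 gaps in such regions, 201 (74.4%) were centred downstream of the start, at a median of 526.5 bp from it. A peak is longer downstream to begin with, so a larger share of its length is open to such gaps. Short edges were judged against the widest peak, which was itself longer downstream in 74.2% of very broad peaks. No share over other regions was computed, so nothing is read from these shares. Single promoters varied. The peaks at the SPHK1 and SPRY1 promoters reached 3111 and 3012 bp downstream of the most upstream start and 119 and 138 bp upstream of it. LHX4 also reached farther downstream (1824 bp) than upstream (1052 bp). The other printed promoters went the other way. DUSP1, FOS, JUN and H3C15 reached 1452, 1836, 1462 and 2228 bp upstream of the printed start and 786, 712, 709 and 462 bp downstream.

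Promoters under very broad peaks were rich in CpG, about as much as those under peaks of 1500 to under 2000 bp. The median ratio of observed to expected CpG was 0.87 over 859 promoters in very broad peaks, 0.868 over 2806 in peaks of 1500 to under 2000 bp, 0.854 over 5753 in peaks of 1000 to under 1500 bp and 0.761 over all 15843 coding genes in the table. The median G and C content rose from 65.7% at 1000 to under 1500 bp to 68.8 and 69.7% in the 2 widest classes. A GC box was present in 78.9% of promoters in very broad peaks, 77.5% in the next class and 58.3% of all. The ETS core was found in 7.41% of promoters in peaks under 500 bp and 19% at 500 to under 1000 bp. From 1000 bp upward its share fell with width. It was 8.61% in very broad peaks, 15.5% at 1500 to under 2000 bp, 21.6% at 1000 to under 1500 bp and 14.2% of all. For the CCAAT box the shares in the same order were 29.3, 34.3, 37.6 and 36.4%. The TATA box was found in 7.57% of promoters in very broad peaks and in 4.13, 4.66 and 9.75% of the others. The E-box was found in 11.4% of promoters in very broad peaks and 8.82% of all, the cAMP response element in 2.21 and 2.56%, and the AP-1 element in 2.1 and 3.62%. A match describes letters in a window of 300 bases and is not evidence of binding. Starts on both strands were present in 275 of 805 very broad peaks with a start (34.2%), against 29.9% at 1500 to under 2000 bp and 23.5% at 1000 to under 1500 bp, where a wider peak also covers more starts.

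Gene groups differed in how often a very broad region lay at an end of a gene. The background was 1078 of 20056 coding genes (5.37%), or 7.58% of those with any peak at an end. Neighbouring genes can share a region. The lists are described by their counts and were not tested.

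Immediate early genes, which respond within minutes to growth signals, had 8 of 39 members under such a region (20.5%). DUSP1, a phosphatase that switches off MAP kinases, measured 2032, 2135, 2016 and 2238 bp and was wide in all lists. DUSP6, another MAP kinase phosphatase, measured 2430, 2640, 1375 and 2707 bp, with 2 peaks in the IGF2BP2 knockout. The AP-1 subunit FOS measured 2518, 1387, 1337 and 2548 bp, so the control and the IGF2BP3 knockout were wide and the other lists were not. JUN, its partner, reached 2000 bp in the IGF2BP3 knockout alone (1170, 1358, 947 and 2171 bp), and FOSB in the IGF2BP1 knockout alone (1138, 2714, 1383 and 999 bp). IER3 measured 1248, 2688, 1529 and 2612 bp. In this group 6 genes reached 2000 bp in the IGF2BP1 knockout, 5 in the IGF2BP3 knockout, 4 in the control and 1 in the IGF2BP2 knockout. Over all 1078 coding genes with such a region the numbers were 827, 496, 504 and 392 in the same order, so the group's counts for the IGF2BP1 knockout and the control were near those of all genes.

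Histone genes had 13 of 82 members under very broad regions (15.9%), several of them sharing a region with a neighbouring histone gene. H2AC19 and H3C15, at chromosome 1, 149850380 to 149853069, measured 2580, 2690, 1238 and 2466 bp. H2AC18 and H3C14, which encode the same histones, measured 2580, 2650, 2544 and 1717 bp, and reads from near-identical copies such as these may not be separable. H2AC25 and H2BC26 measured 2196, 2202, 2220 and 2167 bp and were alike in all lists. H1-4 and H2BC5 formed a single peak of 2664 bp in the IGF2BP1 knockout, and 2 peaks in every other list.

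Homeobox genes had 21 of 158 members under very broad regions (13.3%). LHX4, a factor of pituitary and motor neuron development, measured 2466, 2677, 2876 and 2632 bp. The MEIS1 promoter measured 2450, 2612, 2559 and 2540 bp, and NKX2-2 2065, 2277, 2137 and 2059 bp. PITX3 measured 2215, 2467, 2503 and 2504 bp, in a region shared with GBF1, the only gene with a listed start in it. These 4 were wide in all lists. EN2, a factor of midbrain and hindbrain patterning, measured 1201, 3046, 766 and 1081 bp, and ZEB1 1363, 1327, 1439 and 2627 bp, each wide in 1 list. By contrast, 15 of 509 ZNF-numbered zinc finger genes (2.95%) and 2 of 86 ribosomal protein genes (2.33%) had such a region, and 0 of 23 small nucleolar RNA hosts and long noncoding RNAs. RPL7 and RPL23A were the 2 ribosomal protein genes, with 2415, 2372, 2479 and 2358 bp and 2264, 2310, 2139 and 1644 bp.

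Innate immune genes, the pathway named in the title of the series, had 5 of 69 members under a very broad region (7.25%). The kinase JAK1 measured 1958, 2139, 1303 and 1290 bp. CHUK, a kinase that activates NF-kappaB, measured 1685, 2130, 1715 and 2093 bp. Its region is shared with ERLIN1 and holds no start from the promoter table. NFKB2 measured 1095, 2130, 863 and 1248 bp, NFKB1 1969, 1966, 1986 and 2121 bp, and the transcription factor IRF3, whose region is shared with BCL2L12, 827, 2012, 754 and 788 bp. None of the 5 reached 2000 bp in the control or the IGF2BP2 knockout. The IGF2BP1 knockout passed it at 4 of them and the IGF2BP3 knockout at 2, where 827 and 496 of the 1078 coding genes did, so both counts were near those of all genes. The control and the IGF2BP2 knockout passed it at 504 and 392 of the 1078. NFKB1 was nearly the same in all lists and passed the threshold in 1. Among genes tied to fetal growth, MYCN measured 2036, 986, 2669 and 1927 bp beside HMGA2 and IGF2BP1, giving 3 of 15 genes. Of the remaining lists, heat shock genes had 1 of 17 (HSP90AB1), kidney transcription factors 1 of 26 (SIX4, with PAX2 not counted because its broad region lies inside the gene), neural genes 1 of 17 (SOX2), cell cycle regulators 2 of 20 (CDKN2A and CCNE2) and markers of other lineages 0 of 15.

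Genes for transfer RNAs, which RNA polymerase III transcribes, were noticed under very broad regions after the values were seen. Of 443 nuclear tRNA genes, 50 (11.3%) lay in 21 such regions, against 6.09% of 20037 coding genes overlapping one. Their order over the lists was not that of all very broad regions. Of the 21, 18 reached 2000 bp in the control, 16 in the IGF2BP1 knockout, 7 in the IGF2BP2 knockout and 12 in the IGF2BP3 knockout, whereas over all 1214 regions the numbers were 537, 939, 415 and 512. This difference was not tested. The 21 include the repeated units of a tandem array on chromosome 1, described below. There the control always passed 2000 bp, and the IGF2BP1 knockout did so at a single unit. Without that array the order was that of all very broad regions, with the IGF2BP1 knockout first and the control second. The control was then close behind the IGF2BP1 knockout, unlike the 537 against 939 over all very broad regions. In the region at chromosome 17, 8221010 to 8223825, with 3 tRNA genes including TRD-GTC2-11, the widths were 2816, 2740, 2363 and 2741 bp. At TRK-TTT3-5 on the same chromosome they were 2215, 2010, 838 and 827 bp, and the IGF2BP2 knockout had 2 peaks. TRK-CTT3-1 on chromosome 16 measured 2141, 2163, 1060 and 879 bp. In both, the control and the IGF2BP1 knockout were wide and the other lists were not.

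A tandem array of tRNA genes on chromosome 1 showed another order. It holds repeated units with 4 tRNA genes each, for aspartate, glutamate, glycine and leucine. The region at 161446895 to 161449096 measured 2105, 1494, 1400 and 2202 bp, and that at 161461690 to 161463897 measured 2096, 1440, 1406 and 2022 bp. The region at 161469126 to 161471402 measured 2277, 1409, 1481 and 2118 bp. In these 3 the control and the IGF2BP3 knockout passed 2000 bp and the other lists stayed under 1500 bp. At 161454272 to 161456383 the widths were 2044, 2086, 1424 and 1987 bp, so the IGF2BP1 knockout was wide there. The units are near-identical copies, and how the authors treated reads that match several of them is not given in the sources used here.

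**Figure D5:**
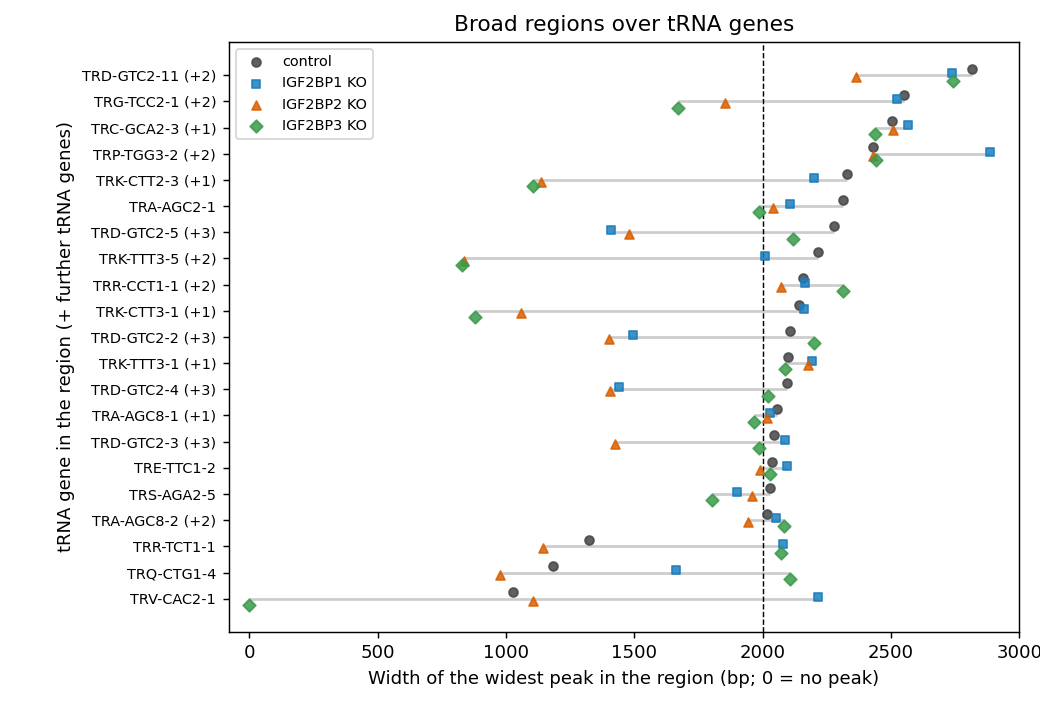
Width of the widest peak (x axis, bp; 0 means no peak) in each list for the 21 broad regions over tRNA genes (y axis, 1 tRNA gene named, with the number of further ones), ordered by control width; the dashed line marks 2000 bp. The control lies above 2000 bp in 18 regions and the IGF2BP2 knockout in 7.

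By chromosome, very broad regions made up between 1.06 and 3.67 per 100 merged regions. Chromosome 21 had the highest value, with 35 of 953 regions (Wilson interval 2.65 to 5.06), followed by chromosome 17 with 2.6 (2.07 to 3.27) and chromosome 14 with 2.45 (1.87 to 3.22). Chromosome 18 had the lowest, 1.06 (0.641 to 1.74). On chromosome 21, 14 of the 35 regions lay below 10 Mb among 124 merged regions (11.3 per 100), where the ribosomal RNA repeats are annotated. The remaining 21 among 829 (2.53 per 100) lay above it. The ribosomal region at 8205046 to 8207895, over the low-coordinate end of the annotated repeat RNA45SN2, measured 2641, 2781, 2507 and 2705 bp, and that over RNA45SN3 measured 2720, 2885, 2545 and 2743 bp. The copy RNA45SN1 measured 1437, 2852, 2471 and 1486 bp, with 2 peaks each in the control and the IGF2BP3 knockout. The repeats are near-identical copies, so reads may have been placed on any of them.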

How the data were processed

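The authors deposited 1 list of peaks per group, with the chromosome, start and end of each peak. Per the submitters' processing notes, the tools were fastp 0.24.1, BWA 0.7.17, MACS2 3.0.0 and bedtools, with GRCh38, without roles or order. The peak threshold, any shift for the transposase cut and how libraries of a group were joined are not given in the sources used here. A longer or more permissive list has more peaks, and calling settings set where a peak ends or splits, so widths can depend on both.

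Peaks of 2000 bp or more were merged at 1 bp in common (Python 3.11.15, pandas 2.3.3), and every list's peaks overlapping a region were recorded. The steps were tested on simulated lists. Gene positions came from a RefSeq table of GRCh38.p14, and starts, strands and sequences from its promoter table. A region was named by the coding gene with an end in or within 1 kb of it, else the gene it overlaps, else the nearest. Shares carry Wilson 95% intervals (scipy 1.17.1), which cover counting error only. Coordinates count from 1.

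Named regions were the 10 widest, up to 8 wide in all lists, up to 4 wide in 1 list alone per list, up to 6 most broken, up to 6 missing from a list, 3 on either side of the threshold, genes of the listed groups and the targeted genes. CXCR4, CDKN2A, TENM3, members of the gene groups beyond the 4 widest, and the tRNA, ribosomal RNA and other small RNA genes were added after their values were seen. Members, lists and rules were chosen with earlier results of these data known. Alternatives covered the threshold, joining of close peaks, overlap, fold, scaling, gene distance and leaving out each list. No replicate could be left out. Exons and introns were not analysed here, and 1 marker gene is not reported here.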

Additional observations from a re-analysis of the deposited data

How the results depend on the processing

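Of 89 alternatives over 18 results, 47 stayed within the tolerance used and 42 moved beyond it. The tolerance was 1.5 times for counts and the 95% interval for shares. A count could therefore move because an alternative compared fewer regions. The number of very broad regions was 5725, 221 and 28 at thresholds of 1500, 2500 and 3000 bp. Regions wide in all 4 lists numbered 1444 at 1500 bp, 24 at 2500 bp, 323 after joining peaks closer than 500 bp and 100 when each list was limited to its 415 widest peaks. In the IGF2BP2 knockout list there were 276 very broad peaks in a random draw of 39194 peaks and 689 after such joining. Joining left 29, 5, 63 and 40 broken regions in the control and the IGF2BP1, IGF2BP2 and IGF2BP3 knockouts.

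Counts of regions wider than in the control were 138, 50 and 61 at a fold of 1.5, and 52, 12 and 16 at a fold of 2, in the IGF2BP1, IGF2BP2 and IGF2BP3 knockouts. Narrower regions numbered 15, 97 and 78 at 1.5, and 3, 28 and 30 at 2. The regions compared numbered 1191, 1185 and 1172 in turn. No share over all merged regions was computed at these 2 folds. The compared widths had also helped to choose the regions, so nothing is read from wider against narrower counts here. Dividing widths by the median width of the list gave 64 narrower regions in the IGF2BP1 knockout, 328 wider and 109 narrower in the IGF2BP2 knockout, and 229 wider in the IGF2BP3 knockout, so that the balance turned towards wider in both. Using the widest peak in place of the sum gave 64 narrower regions in the IGF2BP1 knockout. Choosing regions in the other 2 knockout lists gave 88 wider (13%) and 13 narrower (1.92%) of 676 in the IGF2BP1 knockout. In the IGF2BP3 knockout that choice gave 96 wider of 984 (9.76%, against 12.4% in the main set). Leaving the IGF2BP1 knockout list out of the choice gave 89 wider of 855 in that knockout (10.4%, against 23.8% in the main set). In the IGF2BP2 knockout it gave 72 wider of 854, a share that hardly moved (8.43%, against 9.2%). Leaving out the control list gave 13 narrower of 1108 in the IGF2BP1 knockout (1.17%, against 3.36%).

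The share of regions at a gene end was 69% with the end inside the region, 76.7% within 5 kb, 79.8% with genes of all types, 65% from the midpoint, which was added after seeing the data, and 75.9% with regions chosen without the IGF2BP1 knockout list. The share of broad peaks longer downstream was 69.6% with peaks holding 1 start. Apart from those set by the alternative itself, the cause was not tested.

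No paired analysis was possible because each group is represented by 1 list without replicate values. The depth behind a list is unknown, and edges and gaps of a peak can depend on it.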

Other observations

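Small nuclear RNA genes, whose products form the spliceosome, lay in 4 very broad regions. These held 5 of 154 such genes (3.25%), or 7.04% of those overlapping any merged region, no more than the 6.09 and 7.61% of coding genes. RNU4-1 and RNU4-2 shared a region at chromosome 12, 120290698 to 120293481, of 2209, 2784, 1392 and 2199 bp (control, then the knockouts by number, as in all widths here), with 2 peaks in the IGF2BP2 knockout. RNU5E-1 measured 2162, 2098, 2099 and 2064 bp, RNU2-2 1919, 2604, 1525 and 1495 bp, and RNU4ATAC, of the minor spliceosome, 1987, 2025, 1784 and 1848 bp. RNU5E-1 was thus wide in all lists, and RNU2-2 and RNU4ATAC in the IGF2BP1 knockout alone.

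Of 1913 microRNA genes, 19 lay in very broad regions (0.993%), below the 6.09% of coding genes. As a share of the 183 that overlapped any merged region it was 10.4%, above the 7.61% of coding genes, so the order depends on the denominator. Outside genes for proteins, the host transcript MIR17HG, which carries the microRNAs of the miR-17 cluster, had a region near GPC5 at chromosome 13, 91346894 to 91349405, with 2360, 2387, 2416 and 2428 bp. The region over MIR148A, with NFE2L3 as the nearest coding gene, measured 895, 2187, 1185 and 2335 bp. MIR17HG was therefore alike in all lists, whereas MIR148A was wide in the IGF2BP1 and IGF2BP3 knockouts. RUNX1, a factor of blood formation, held 2 very broad regions inside the gene, with 1774, 2276, 1199 and 1880 bp and with 2165, 2198, 912 and 2368 bp. The IGF2BP2 knockout was the narrowest in both. These regions were picked after their values were seen.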
